A study of Homo sapiens with 8 samples.

Results

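The transcripts described are noncoding genes that carry small nucleolar RNAs (snoRNAs) in their introns: GAS5, SNHG1, SNHG5, SNHG6, SNHG7, SNHG8, SNHG12, SNHG15, ZFAS1 and EPB41L4A-AS1. A gene was taken from the probe set mapped to its symbol alone with the highest mean over the arrays. By that rule 3 of the 10 listed genes were measured (EPB41L4A-AS1, ZFAS1 and GAS5), of 19775 genes in all. The other 7 were dropped, because each of their probe sets also carries the symbols of snoRNAs that lie inside the host. In a second reading, added after the data were seen, each of the 10 hosts was taken from its brightest probe set whose other symbols, if any, were small RNA genes that RefSeq places within the host. The annotation gives the signal of such a probe set to the host and its snoRNAs jointly, and which of them it came from was not tested.

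The cells were NCI-H1975, an established human lung adenocarcinoma line with a mutant EGFR. Total RNA was measured on 8 Affymetrix 3′ expression arrays, 1 array for each condition, all after 24 h. The 4 arrays with 2 mM L-histidinol carried the combination of 10 nM osimertinib with 1 µM alpelisib, osimertinib alone, alpelisib alone or the DMSO vehicle. The 4 arrays without L-histidinol carried the same 4 drug treatments. All groups shared the line, the medium with serum and kanamycin, and no condition had a second culture. Osimertinib inhibits mutant EGFR and alpelisib inhibits the alpha isoform of PI3K. L-histidinol is an analogue of histidine that blocks the charging of its tRNA, which slows translation and activates the kinase GCN2.

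In a snoRNA host gene the intron yields the stable small RNA, which guides the modification of ribosomal RNA, and the spliced exons are often a by-product with short open reading frames. Ribosomes that read such exons expose them to nonsense-mediated decay, which removes a transcript only while it is translated. GAS5 and its relatives are therefore known to build up when translation slows. Several hosts also begin with a run of pyrimidines, as ribosomal protein mRNAs do, an element that ties their translation to mTOR.

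The sequences around the annotated starts are shown because that element lies there. RefSeq's promoter table for GRCh38.p14 held 8 of the 10 hosts, each with 1 start, which may not be the start used in these cells. Each line below gives 20 bases before the start and 30 from it, 5′ to 3′ on the gene's strand. Capitals mark a C at the first transcribed base with at least 4 pyrimidines after it, where there is one. SNHG5, on the minus strand at chr6:85678704-85678753, SNHG12, on the minus strand at chr1:28581844-28581893, and ZFAS1, on the plus strand at chr20:49278622-49278671, have it. EPB41L4A-AS1, on the plus strand at chr5:112160506-112160555, and SNHG8, on the plus strand at chr4:118278742-118278791, do not, and are set beside them because they had the largest responses to L-histidinol.
SNHG5: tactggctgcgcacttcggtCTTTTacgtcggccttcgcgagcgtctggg
SNHG12: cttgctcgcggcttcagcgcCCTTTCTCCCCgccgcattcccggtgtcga
ZFAS1: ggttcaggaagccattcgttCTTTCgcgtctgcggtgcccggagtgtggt
EPB41L4A-AS1: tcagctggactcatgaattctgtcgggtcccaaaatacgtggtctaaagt
SNHG8: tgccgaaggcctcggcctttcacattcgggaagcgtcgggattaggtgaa
The run began at the first base in 3 of 8 hosts, against 4.04% of 27305 promoters in the table and 68.3% of 63 promoters of ribosomal protein genes. It began within 10 bases of the first base, on either side, in 5 of 8 hosts, against 33.3% of all promoters and 88.9% of those of ribosomal protein genes. SNHG8 was among these 5, and EPB41L4A-AS1 was not. The letters TGATGNAA, a core of the site bound by ATF4, were looked for on both strands from 250 bases before to 50 bases after each start. They were in 0 of the 8 hosts' windows and in 3.67% of all windows, which says only that those letters are not in these windows.

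Values are log2 of the authors' normalized intensity, and they are compared only within a probe set. Differences were fitted with limma over all 8 arrays, with additive terms for L-histidinol and for the drug treatment. The spread is therefore the departure of the 8 arrays from that sum, and not the variation between cultures. A gene or probe set is called at a Benjamini-Hochberg adjusted p below 0.05 over all of them. Medians of intensity lay between 21.8 and 22.4 on the 8 arrays. The 8 epithelial markers had log2 intensities between 6.997 and 13.21 on the arrays with L-histidinol and between 8.01 and 13.28 on those without, and their summed linear intensity was 25000 to 30100 with L-histidinol and 27000 to 34300 without. With L-histidinol 1 of the 8 was called higher, EGFR at 0.38 ± 0.05, and 4 were called lower, the farthest NKX2-1 at -0.62 ± 0.08. With the combination 5 were called higher, among them NKX2-1 at 1.90 ± 0.12, and 1 lower, EGFR at -0.54. The 7 measured markers of fibroblasts, blood and endothelial cells lay between 1.48 and 5.14 with L-histidinol and between 1.70 and 5.43 without, and the defining COL3A1, LUM and PTPRC at 3.05 or below. Of these 7, 0 were called with L-histidinol and 1 with the combination, LUM, at 1.23 ± 0.16 within these low intensities. The part of either marker list in the results was not tested. The ratio of the 3′ to the 5′ control probe sets of ACTB, a sign of RNA quality, was 1.10 to 1.15 with L-histidinol and 1.04 to 1.07 without, and its part in the results was not tested. The same ratio for GAPDH was 0.966 to 0.982 with L-histidinol and 0.978 to 1.01 without.

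L-histidinol raised EPB41L4A-AS1 and ZFAS1, and the third measured gene, GAS5, did not pass the test on its dim unshared probe set. EPB41L4A-AS1, the host of SNORA13, had log2 intensities of 10.42 with L-histidinol plus the combination, 10.38 with L-histidinol plus osimertinib, 9.95 with L-histidinol plus alpelisib and 9.55 with L-histidinol alone. Without L-histidinol it had 9.39 with the combination, 8.64 with osimertinib, 8.76 with alpelisib and 8.32 with vehicle. The lowest array with L-histidinol was above the highest without it. The fitted change was 1.29 ± 0.09 (SE, 4 array pairs), with an adjusted p of 1.123e-05.

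ZFAS1, a host antisense to the start of ZNFX1, had 12.72, 12.79, 12.68 and 12.72 with L-histidinol plus the combination, osimertinib, alpelisib and vehicle. Without L-histidinol the same treatments gave 12.45, 12.17, 12.20 and 12.05. The groups did not overlap, the change was 0.51 ± 0.06 and the adjusted p was 1.687e-04. GAS5, named for its rise in growth-arrested cells, had 3.80, 3.75, 3.92 and 4.03 with L-histidinol on its unshared probe set 1560402_at, in the same order of treatments. Without L-histidinol that probe set gave 3.80, 3.37, 3.64 and 3.75, so the groups overlapped. Its change of 0.24 ± 0.09 had an adjusted p of 0.1003. It was 0.31 with an adjusted p of 0.04816 without the array of the combination, and 0.31 with 0.04831 without that of L-histidinol plus the combination. Across the array, L-histidinol raised 11.4% of genes and lowered 9.17%.

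**Figure D1:**
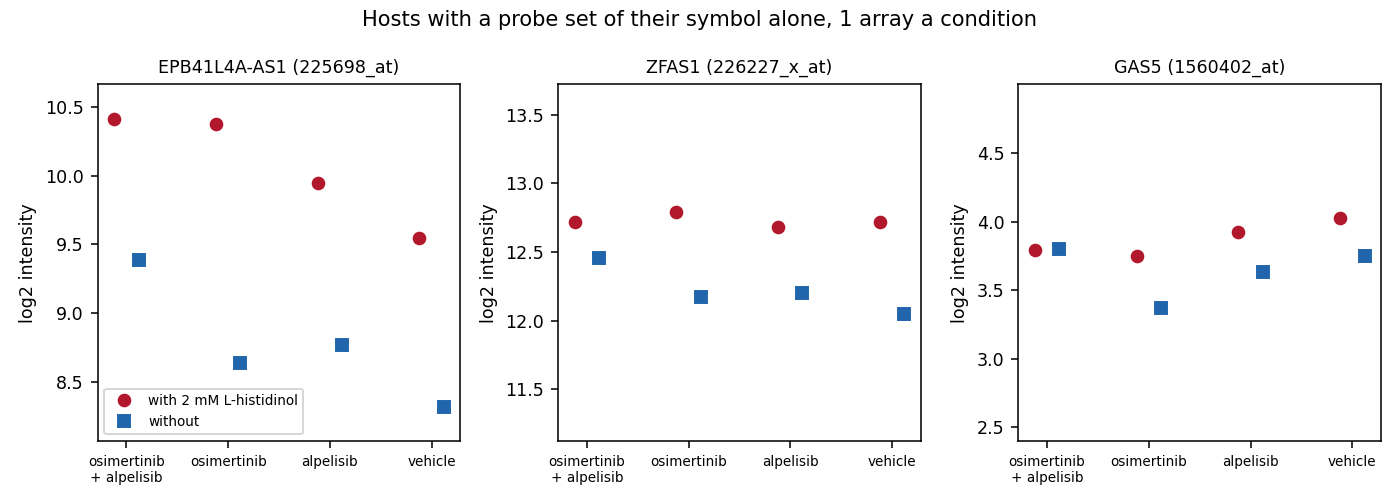
Log2 intensity of the 3 hosts with a probe set of their symbol alone (1 panel each, vertical axes of equal span), by drug treatment on the horizontal axis. Each point is 1 array, circles with and squares without 2 mM L-histidinol; for EPB41L4A-AS1 and ZFAS1 every circle lies above every square, and for GAS5 they overlap.

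In the wider reading, each of the 10 host probe sets was called higher with L-histidinol. SNHG8 and EPB41L4A-AS1 rose most, both near 2.5-fold, and SNHG6 least, with 1.24-fold. The median change over the 10 was 0.68 on the log2 scale, beside -0.01 over all 54613 probe sets, of which 7.52% were called higher and 6.1% lower. On 7 of the 10 every array with L-histidinol was above every array without it, which was so for 3.64% of all probe sets. SNHG7, SNHG1 and SNHG15 were the 3 whose groups overlapped. The list and this reading were set with results of these data known, so the shares describe these hosts and are not an independent test. Of 13 measured noncoding hosts outside the list, read the same way, 5 were called higher.

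SNHG8, the host of SNORA24, had 11.42, 11.81, 11.21 and 11.29 with L-histidinol plus the combination, osimertinib, alpelisib and vehicle. Without L-histidinol it had 10.17, 10.09, 10.08 and 10.21, far below and close together. Its change of 1.30 ± 0.08 was 2.46-fold, with an adjusted p of 9.833e-07. The change of EPB41L4A-AS1 was 2.45-fold.

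In this reading GAS5 was taken from probe set 224741_x_at, which also carries the symbols of 8 snoRNAs of the box C/D class such as SNORD44, SNORD47 and SNORD81. There it had 12.06, 12.29, 12.11 and 12.13 with L-histidinol, in the same order of treatments, against 11.50, 11.22, 11.27 and 11.09 without. The groups did not overlap. The change was 0.88 ± 0.07, or 1.84-fold (adjusted p = 6.233e-06).

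SNHG12, host of the box H/ACA snoRNAs SNORA16A, SNORA44 and SNORA61, had 9.38, 9.19, 8.71 and 8.88 with L-histidinol, against 8.49, 8.02, 8.18 and 8.36 without. The groups did not overlap, and the change was 0.78 ± 0.09, or 1.72-fold (adjusted p = 1.183e-04). SNHG15, the host of SNORA9, had 8.91, 9.27, 9.47 and 9.89 with L-histidinol, against 7.94, 8.35, 8.99 and 9.31 without. The groups overlapped, since the array of vehicle without L-histidinol was above 2 arrays with it, but each array with L-histidinol was above its partner of the same drug treatment. The change was 0.74 ± 0.07, or 1.67-fold (adjusted p = 4.534e-05).

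SNHG1, whose probe set carries the symbols of 8 box C/D snoRNAs, SNORD22 and SNORD25 to SNORD31, had 10.10, 10.16, 9.95 and 10.24 with L-histidinol, against 9.18, 9.20, 9.63 and 9.98 without. The vehicle array without L-histidinol lay within the range of the arrays with it. The change was 0.61 ± 0.10 (adjusted p = 0.001155). SNHG5, host of SNORD50A and SNORD50B, had 12.37, 12.53, 12.51 and 12.58 with L-histidinol, against 12.13, 11.96, 12.03 and 11.89 without, with no overlap. Its change was 0.49 ± 0.06 (adjusted p = 1.183e-04).

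SNHG6, the host of SNORD87, changed least and over the narrowest range. It had 12.73, 12.77, 12.77 and 12.89 with L-histidinol, against 12.50, 12.42, 12.53 and 12.47 without, with no overlap. The change was 0.31 ± 0.04 (adjusted p = 1.756e-04). SNHG7, host of SNORA17A and SNORA17B, had 9.88, 9.38, 9.16 and 9.10 with L-histidinol, against 9.34, 8.72, 8.94 and 9.24 without. It was the only one of the 10 whose value fell in any array pair, by 0.14 in vehicle-treated cells, and its change of 0.32 ± 0.10 had an adjusted p of 0.04497. That call was lost when any 1 of the 6 arrays with a drug was left out, with changes between 0.21 and 0.35 and adjusted p-values between 0.0937 and 0.2943. It was also lost on the host's other probe set, where the change was -0.04, and with variances fitted without a trend (adjusted p = 0.1752) or robustly (adjusted p = 0.1209).

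**Figure D2:**
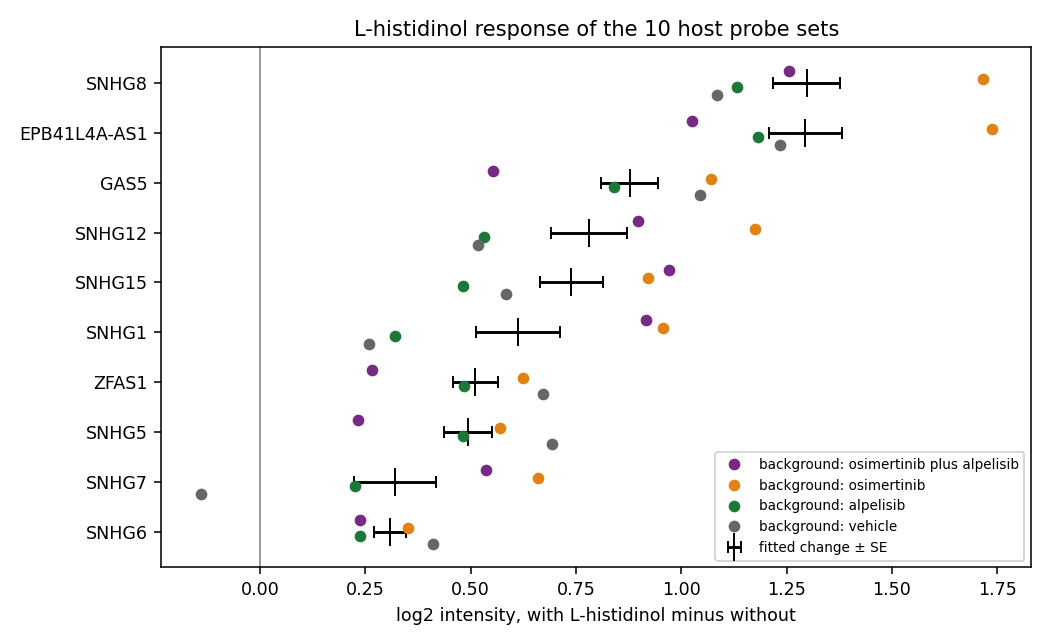
Change in log2 intensity (with L-histidinol minus without, horizontal axis) of the 10 host probe sets, ordered by size. Coloured points are single array pairs in each drug background, and the black bars are the fitted change ± SE; 39 of the 40 points lie right of 0, the exception being SNHG7 in vehicle-treated cells.

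The array pairs gave responses of different size in the drug backgrounds. The difference was called for no host with the prior of the additive fit, and for some hosts with the prior of the interaction fit. In the background of osimertinib the L-histidinol change was 1.74 for EPB41L4A-AS1, 1.72 for SNHG8, 1.17 for SNHG12 and 0.96 for SNHG1. In the vehicle background it was 1.23 for EPB41L4A-AS1, 1.09 for SNHG8, 0.52 for SNHG12 and 0.26 for SNHG1. Both backgrounds are without alpelisib. The smallest change of EPB41L4A-AS1, 1.03, was in the background of the combination, and its fitted difference in response with osimertinib was 0.17. The fitted response was larger under osimertinib in 6 of the 10 hosts and smaller in 4, among them SNHG5, at 0.57 under osimertinib and 0.69 with vehicle. The difference in response with osimertinib was 0.65 ± 0.09 for SNHG1 with an adjusted p of 0.1210, and 0.51 ± 0.11 for SNHG12 with 0.2848. By limma 0 of the 10 host probe sets were called for that interaction, as were 0% of all genes and 0% of all probe sets. Before adjustment 6 of the 10 had a p below 0.05, 5 of them with a larger response under osimertinib, and so had 7.23% of all probe sets.

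With alpelisib the L-histidinol change was smaller in 8 of the 10, and again 0 hosts, 0% of all genes and 0% of all probe sets were called. The difference was -0.38 ± 0.14 for EPB41L4A-AS1 (adjusted p = 0.9671 in the fit of probe sets) and -0.36 ± 0.09 for GAS5 (adjusted p = 0.8740). Before adjustment 4 of the 10 had a p below 0.05, all 4 with a smaller response, and so had 4.94% of all probe sets. Both interactions rest on 1 residual degree of freedom, with the prior of the additive fit. The spread of the additive fit contains these same interactions, which makes a call less likely. The lack of calls therefore cannot show that the responses were equal. With the prior of their own fit, 5 hosts were called with a larger response and 1 with a smaller one under osimertinib, and 4 with a smaller one under alpelisib. In the fit of genes, that prior called 576 of all 19775 genes upward and 320 downward for the interaction with osimertinib. For the interaction with alpelisib it called 155 upward and 123 downward.

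The drugs did not move the 10 hosts one way. Osimertinib raised EPB41L4A-AS1 and lowered SNHG15 and SNHG1, and the combination did the same and also raised SNHG7. No host probe set was called for alpelisib alone. The comparisons with vehicle share the vehicle arrays, so their values are given side by side without counting their likeness as a result.

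Among the 3 genes of the rule, EPB41L4A-AS1 was higher by 0.97 ± 0.13 with the combination (SE, 2 array pairs, adjusted p = 7.505e-05), by 0.57 ± 0.13 with osimertinib (adjusted p = 0.005125) and by 0.42 ± 0.13 with alpelisib (adjusted p = 0.05755, not called). The values per array are those given above: in both L-histidinol settings each drug treatment was above vehicle. The call for osimertinib rests on 1 array, since without that of L-histidinol plus osimertinib the change was 0.28 with an adjusted p of 0.08588. The alpelisib change of 0.42 was called when any 1 of the 4 arrays with osimertinib was left out, with adjusted p-values from 0.01121 to 0.01855. ZFAS1 changed by 0.20 ± 0.08 with the combination (adjusted p = 0.06185), 0.10 ± 0.08 with osimertinib (adjusted p = 0.4271) and 0.06 ± 0.08 with alpelisib (adjusted p = 0.7513). On its unshared probe set GAS5 changed by -0.09 ± 0.13, -0.33 ± 0.13 and -0.11 ± 0.13 in the same comparisons, with adjusted p-values of 0.6499, 0.08435 and 0.6983.

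Over the whole array the combination raised 21.4% of genes and lowered 19.2%. The shares were 16.4% higher and 14% lower with osimertinib, and 7.08% higher and 4.38% lower with alpelisib. Against osimertinib alone, the combination changed EPB41L4A-AS1 by 0.40 ± 0.13 (adjusted p = 0.06740), a comparison with 5.96% of genes higher and 7.41% lower over the whole array. None of the 3 genes was called there by limma, and 1 had an unadjusted p below 0.05, as had 20.4% of all probe sets. Against alpelisib alone the combination raised EPB41L4A-AS1 by 0.55 ± 0.13 (adjusted p = 0.007158), where 14.6% of genes rose and 14.4% fell over the whole array. That call was lost without the array of the combination, where the change was 0.37, and without that of L-histidinol plus alpelisib, where it was 0.47.

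SNHG15 fell the most among the host probe sets. With the combination it had 8.91 with L-histidinol and 7.94 without, against 9.89 and 9.31 with vehicle. Its change was -1.18 ± 0.11 with the combination (0.441-fold, adjusted p = 1.362e-06), -0.80 ± 0.11 with osimertinib (0.576-fold, adjusted p = 1.131e-04) and -0.38 ± 0.11 with alpelisib (adjusted p = 0.05087). SNHG15 moved up with L-histidinol and down with the drugs, while EPB41L4A-AS1 moved up with both.

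SNHG1 was lower by -0.48 ± 0.14 with the combination (adjusted p = 0.01953) and by -0.43 ± 0.14 with osimertinib (adjusted p = 0.04573). Both calls were lost without single arrays of the cells that had no L-histidinol. Without the vehicle array the changes were -0.24 and -0.20, without the array of the combination its change was -0.27, and without that of osimertinib its change was -0.20, none of them called. SNHG7 was higher by 0.45 ± 0.14 with the combination (adjusted p = 0.02430). Without the array of L-histidinol alone that change was 0.14, and without that of L-histidinol plus the combination 0.30, neither called.

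The other 6 hosts on their brightest probe sets gave changes between -0.06 (SNHG6) and 0.31 (SNHG12) with the combination, and between -0.09 (SNHG6) and 0.20 (SNHG8) with osimertinib. These are means over both L-histidinol settings, which differed. GAS5 had 11.50 with the combination and 11.09 with vehicle without L-histidinol, and 12.06 and 12.13 with it. ZFAS1 had 12.45 and 12.05 without it, and 12.72 and 12.72 with it. SNHG5 had 12.13 and 11.89 without it, and 12.37 and 12.58 with it. For SNHG8 and SNHG12 the combination gave the higher change on the arrays with L-histidinol. This difference between settings was not tested for the combination. Among all probe sets the combination called 15.5% higher and 14.5% lower, osimertinib 10.5% higher and 10.2% lower, and alpelisib 4.17% higher and 2.72% lower. The shares of hosts called under the drugs, 4 of 10 with the combination and 3 of 10 with osimertinib, stand near those of all probe sets in either direction. For alpelisib limma called 0 of 10, and 3 of 10 had an unadjusted p below 0.05, as had 18.8% of all probe sets.

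A deviation of the combined drugs from additivity was called for 0 of the 10 hosts, 0.0303% of all genes and 0.0293% of all probe sets. The largest were 0.68 ± 0.19 for SNHG7 (adjusted p = 0.4047) and 0.50 ± 0.18 for SNHG12 (adjusted p = 0.5285). These were the 2 hosts with an unadjusted p below 0.05, as had 7.73% of all probe sets.

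**Figure D3:**
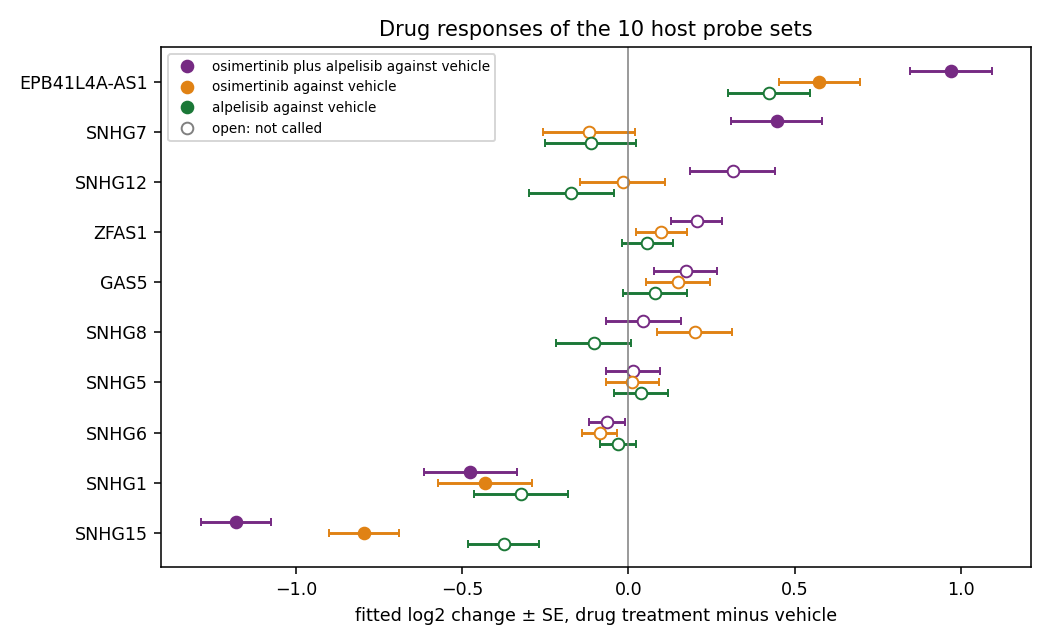
Fitted log2 change ± SE (horizontal axis, drug treatment minus vehicle, over both L-histidinol settings) of the 10 host probe sets, ordered by the change with the combination. Filled points are called and open points are not; EPB41L4A-AS1 is at 0.97 and SNHG15 at -1.18 with the combination, and 6 hosts have no call for any treatment.

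Probe sets of the same host did not move together under the drugs. The 10 hosts have 21 probe sets in all, and 5 hosts have more than 1. With L-histidinol 17 of the 21 were called higher, against 7.52% of all probe sets. With the combination 7 were called lower and 3 higher, against 14.5% and 15.5% of all probe sets, and 2 hosts had probe sets called in opposite directions.

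GAS5 shows the widest split. With the combination its bright probe sets 224741_x_at and 224841_x_at changed by 0.17 ± 0.10 and 0.22 ± 0.10, neither called. Its probe sets 227517_s_at and 228238_at, which carry the same 8 snoRNA symbols, fell by 1.00 and 1.145 on the log2 scale, with adjusted p-values of 1.464e-06 and 6.014e-07. On 228238_at the 8 values were 7.44, 8.06, 8.08 and 8.48 with L-histidinol plus the combination, osimertinib, alpelisib and vehicle, against 7.03, 7.48, 7.78 and 8.27 without. Both arrays of the combination were below the 6 others, and both vehicle arrays were above the drug arrays of their own L-histidinol setting. All 4 of these probe sets rose with L-histidinol, by 0.88, 0.90, 0.47 and 0.38.

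ZFAS1 has 3 bright probe sets that changed by 0.16 to 0.20 with the combination, none called, and the dimmer 229899_s_at, which changed by -0.60 ± 0.12 (adjusted p = 0.001391). All 4 rose with L-histidinol, by 0.39 to 0.60. SNHG12 was called higher with the combination on 223774_at, by 0.47 ± 0.13 (adjusted p = 0.01448), and lower on 228990_at, by -0.40 ± 0.09 (adjusted p = 0.003119). The second did not pass the test for L-histidinol, with 0.07 ± 0.06. SNHG7 was higher on 229050_s_at, as above, and lower on 1552729_at, by -0.51 ± 0.11 (adjusted p = 0.002459). The stretch of each transcript that these probe sets match was not used here, and the reason for the split was not tested.

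EPB41L4A-AS1 has a dim second probe set, 228259_s_at, with values between 4.22 and 4.64 with L-histidinol and between 4.11 and 4.42 without. It was not called, at 0.12 ± 0.09 for L-histidinol and -0.25 ± 0.12 for the combination. Names ending in _x_at or _s_at mark probes that also match other transcripts. Without such probe sets GAS5 is read from 228238_at, SNHG12 from 223774_at and SNHG7 from 1552729_at, and ZFAS1 has none. On that reading 8 of 9 hosts were called higher with L-histidinol, SNHG7 being the exception. In the fit of genes without such probe sets, 1620 of all 17098 were called higher.

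**Figure D4:**
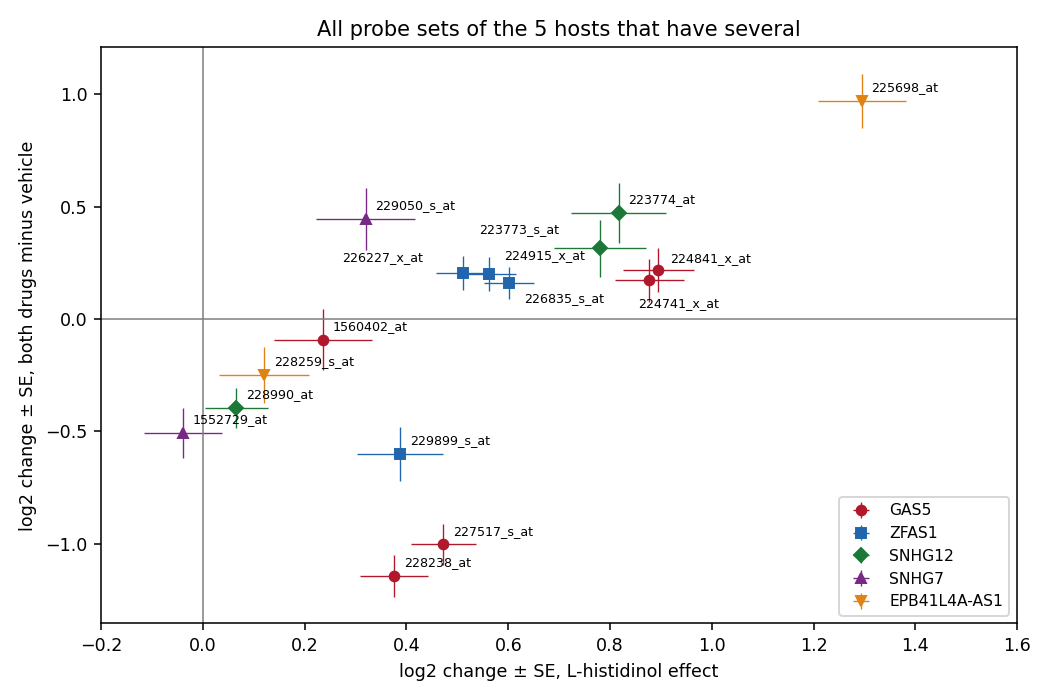
Every probe set of the 5 hosts that have several, by its fitted log2 change with L-histidinol (horizontal axis) and with both drugs against vehicle (vertical axis), each ± SE. Most points lie right of 0, while along the vertical axis the probe sets of each of the 5 hosts stand on both sides of 0.

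The hosts' profiles over the 8 arrays were alike in part. Pearson's r between 2 host probe sets ran between 0.03 for SNHG7 with SNHG15 and 0.99 for GAS5 with ZFAS1, and all these values share the 8 arrays. The mean of the 10, each centred on its own mean, was 0.40, 0.46, 0.26 and 0.33 with L-histidinol plus the combination, osimertinib, alpelisib and vehicle. Without L-histidinol it was -0.29, -0.52, -0.34 and -0.31. Among 9590 other genes with a mean log2 of at least 6, the profiles nearest to it were those of TOMM20, VAMP4, CCNB1IP1, TMEM128 and SPG21, with r between 0.98 and 0.99. Nearest to the mean of the 3 genes of the rule were RFK, GNPDA1, UBE2E2, HPS4 and GTF2A1, with r between 0.98 and 0.99.

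Other snoRNA hosts were read beside the 10. Among 13 measured noncoding hosts outside the list, read by the same wider rule, 5 were called higher with L-histidinol and 0 lower, against 7.52% and 6.1% of all probe sets, with a median of 0.14. SNHG32 rose by 0.90 ± 0.07, SNHG17 by 0.77 ± 0.05, SNHG29 by 0.37 ± 0.04 and SNHG11 by 0.32 ± 0.06. In all array pairs 6 of the 13 were higher with L-histidinol. DANCR and SNHG19 were lower in every pair, with changes of -0.43 to -0.01 and of -0.24 to -0.07, and neither was called. With the combination 1 of the 13 was called higher and 5 lower, against 15.5% and 14.5% of all probe sets. SNHG17 fell there, by 0.92 on the log2 scale, as did DANCR, a host linked to the upkeep of progenitor cells, by 0.69.

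Of 27 protein-coding hosts 13 were called higher with L-histidinol and 0 lower, with a median of 0.10, read against the same shares of all probe sets. TAF1D, a subunit of a factor for RNA polymerase I, rose by 0.59 ± 0.05, HSPA9, a mitochondrial chaperone, by 0.39 ± 0.04, EIF4A1, an RNA helicase of translation initiation, by 0.37 ± 0.07 and NOP56, a core snoRNP protein, by 0.36 ± 0.06. The value of EIF4A1 is that of a single probe set; its other 2, which also match a readthrough gene and were left out, changed by 0.07 ± 0.04 and 0.06 ± 0.03 and were not called (adjusted p = 0.2089 and 0.2796, limma). With the combination 2 were called higher and 9 lower, against 15.5% and 14.5% of all probe sets, and NOP56 fell by 1.58 on the log2 scale. These lists differ from the 10 hosts in their brightness and in the number of probe sets, and the difference between lists was not tested.

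The proteins that translation and snoRNA assembly depend on were counted from fixed lists, read from probe sets with their symbol alone. Of 53 measured ribosomal proteins, whose mRNAs share the pyrimidine start, 14 were called higher with L-histidinol and 0 lower, against 11.4% and 9.17% of all genes, with a median of 0.07. The largest were RPL3 at 0.31 ± 0.04 and RPL14 at 0.19 ± 0.03. With the combination 1 was called higher and 2 lower, below the shares of 21.4% and 19.2% over all genes, and the median was -0.01. In that comparison RPS9 changed by 0.27 ± 0.04 and RPL27 by -0.16 ± 0.04.

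Of 16 snoRNP proteins and assembly factors 4 were called higher and 2 lower with L-histidinol, against 11.4% and 9.17% of all genes, among them ZNHIT6, an assembly factor, at 0.31 ± 0.06 and GAR1, a core box H/ACA protein, at 0.26 ± 0.05. NOP10 and NHP2, of the same box H/ACA complex, fell by 0.20 and 0.19 on the log2 scale. With the combination 14 of the 16 were called lower and 0 higher, against 19.2% of all genes called lower, with a median of -0.84. With osimertinib also 14 were called lower, against 14% of all genes, with a median of -0.50. TCOF1, which couples the making of ribosomal RNA to its modification, fell by 1.82 with the combination, RUVBL1, an assembly ATPase, by 1.26, NOLC1, a snoRNP chaperone, by 1.15 and NOP58, a core box C/D protein, by 1.01, all on the log2 scale.

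Of 8 measured factors of nonsense-mediated decay, 1 was called higher with L-histidinol, RBM8A of the exon junction complex, at 0.28 ± 0.05, a count near the 11.4% of all genes. UPF1, the central helicase of the pathway, changed by -0.05 ± 0.07 with L-histidinol (adjusted p = 0.6797) and by -0.18 ± 0.10 with the combination (adjusted p = 0.1811). With the combination 1 of the 8 factors was called higher and 3 lower, against 21.4% and 19.2% of all genes. The lowest change there was that of RBM8A, at -0.91. Of 15 mRNAs known as targets of the pathway, 7 were called higher with L-histidinol and 1 lower, against 11.4% and 9.17% of all genes, with a median of 0.09. UPP1, a uridine phosphorylase, rose by 1.01 ± 0.11, ATF3 by 0.82 ± 0.06, ATF4 by 0.82 ± 0.06 and GADD45A by 0.46 ± 0.05, all 4 also known as stress-response genes. With the combination 5 were called higher and 7 lower, against 21.4% and 19.2% of all genes, among them GADD45B at 1.76 ± 0.06 and TRA2B, a splicing factor, at -1.03 ± 0.06. With L-histidinol the lowest change among the 15 was that of MAP3K14, at -0.29. On the arrays of L-histidinol alone and of vehicle, SRSF6 had 8.46 and 8.50, SMG5 7.83 and 7.89, and TRA2A 9.20 and 8.81. Why the targets differed was not tested.

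Of 20 genes of translation control 12 were called higher with L-histidinol and 3 lower, against 11.4% and 9.17% of all genes. ASNS, asparagine synthetase and a target of ATF4, rose by 2.02 ± 0.12, and EIF4EBP1, which blocks the cap-binding protein, by 0.66 ± 0.06. LARP1, which binds mRNAs with a pyrimidine start, rose by 0.29 ± 0.05 and MYC by 0.60 ± 0.05. With the combination 4 of the 20 were called higher and 11 lower, against 21.4% and 19.2% of all genes. EIF4EBP1 fell by 0.56, LARP1 by 0.41 and MYC by 0.62 on the log2 scale, while ASNS changed by -0.32 ± 0.17 (adjusted p = 0.1628). That mean joins opposite moves. ASNS had 9.45 with the combination and 9.25 with vehicle without L-histidinol, and 10.99 and 11.84 with it.

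**Figure D5:**
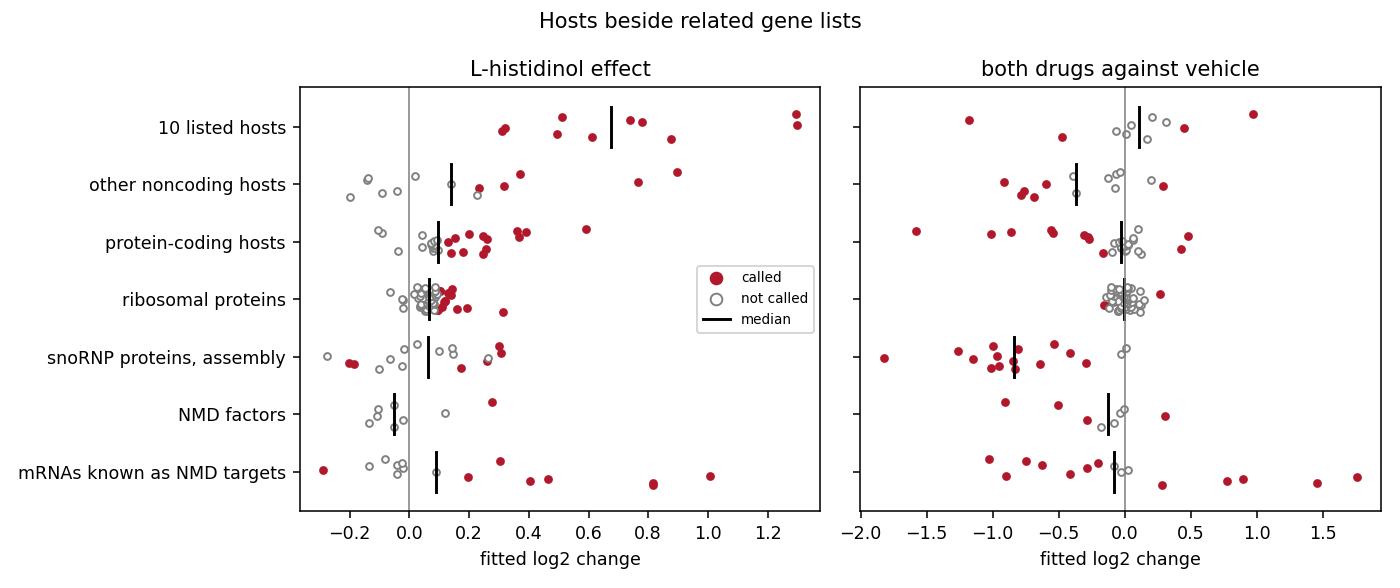
Fitted log2 changes (horizontal axes) with L-histidinol (left) and with both drugs against vehicle (right) for the 10 host probe sets and the related lists (rows); each point is a gene, filled where called, and the black bar is the row's median. The 10 hosts have a median of 0.68 with L-histidinol, and the snoRNP proteins one of -0.84 with both drugs.

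Coding genes that neighbour or overlap 6 of the hosts were read as well. Those of SNHG5, SNHG6, SNHG7 and SNHG15 were not read. SLC3A2, an amino acid transporter subunit next to SNHG1, had 10.35, 10.56, 10.41 and 10.88 with L-histidinol plus the combination, osimertinib, alpelisib and vehicle, against 9.44, 9.40, 9.34 and 9.58 without. Its change of 1.11 ± 0.06 (adjusted p = 1.732e-06) was in the direction of SNHG1, as were its falls of 0.34 with the combination and 0.25 with osimertinib. TRNAU1AP, which overlaps SNHG12 in RefSeq and serves selenocysteine insertion, went the other way with L-histidinol, by -0.51 ± 0.05 (adjusted p = 1.483e-04). With the combination TRNAU1AP rose by 0.53 ± 0.08.

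ZNFX1, next to ZFAS1, was not called with L-histidinol, at 0.06 ± 0.06, and rose by 0.53 ± 0.09 with the combination. EPB41L4A, which overlaps EPB41L4A-AS1 in RefSeq, was dim and changed by -0.23 ± 0.11 with L-histidinol (adjusted p = 0.1636) and by 0.08 ± 0.15 with the combination. ZBTB37, which overlaps GAS5, was dim too and rose by 0.41 ± 0.09 with L-histidinol (adjusted p = 0.007607) and by 0.62 ± 0.13 with the combination (adjusted p = 0.001879). PRSS12, next to SNHG8, was near the lowest intensities, and changed by -0.24 ± 0.09 with L-histidinol (adjusted p = 0.1065) and rose by 0.56 ± 0.13 with the combination (adjusted p = 0.005072).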

How the data were processed

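The authors deposited 1 linear intensity a probe set; RMA and affy are the tools that the submitters' processing notes name, and their versions were not given in the sources used here. Per the labels' protocols, biotinylated cRNA came from 100 ng of RNA. The design foresaw log2 values; since the table is linear, log2 was taken first, and no further scaling was applied. Of 54675 probe sets, 62 controls were left out; 41091 carried 1 symbol, 1801 several and 11721 none, and 41037 matched RefSeq by Entrez identifier. The comparisons used limma 3.58.1 under R 4.3.3 (eBayes with a trend, 3 residual degrees of freedom), over 19775 genes and, as an alternative added after seeing the data, over 54613 probe sets. L-histidinol's interactions used all 2-way terms. Adjustment was by Benjamini and Hochberg. The scripts were tested on simulated data. Every listed host is given on every array. From other lists up to 4 of the largest called members are named. EIF4EBP1, LARP1, ATF4, ASNS, MYC, UPF1, the neighbours of 6 hosts and the 5 nearest profiles are named too. The members and lists were chosen with earlier results of these data known. Each condition has 1 array, which limits the precision. Figures used Python with matplotlib 3.10.9.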

Additional observations from a re-analysis of the deposited data

How the results depend on the processing

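No paired analysis was possible because the labels give no replicate numbers; matching of the arrays by drug treatment is already part of every fit, as its drug term. Of 363 values of the 3 genes under other settings, 335 kept direction and call, 5 lost the call, 23 gained one and 0 reversed. With L-histidinol 2 of 3 genes were called, 1 without marked probe sets (which leave ZFAS1 none).
Fit with all 2-way terms, which makes very small p-values from 1 residual degree of freedom: 2 genes higher with osimertinib, the combination, and the combination against each drug, 1 with alpelisib. Hosts there: 4 higher with osimertinib, 1 higher and 3 lower with alpelisib, 5 higher with the combination. Of all 19775 genes it called 4186 higher and 3604 lower with osimertinib, and 2667 and 2355 with alpelisib. With the combination these were 4893 and 4422, against osimertinib alone 2388 and 2806, and against alpelisib alone 3870 and 3723. Own prior of that fit: L-histidinol with osimertinib 5 hosts higher and 1 lower, with alpelisib 2 genes and 4 hosts lower. Of all 19775 genes it called 576 higher and 320 lower with osimertinib, and 155 and 123 with alpelisib. Without marked probe sets: hosts lower 4 with osimertinib, 1 with alpelisib, 4 with the combination. Of all 17098 genes read so, 1985, 519 and 2778 were lower in the same order. Mean of probe sets: 0 genes higher with osimertinib and with the combination against alpelisib, where 2572 and 2373 of all 19775 genes were. Centred on array medians: 1 gene lower with osimertinib (GAS5, -0.43), as were 4123 of all 19775 genes. Mean log2 of at least 5: 1 host higher and 1 lower with alpelisib, 2 genes higher with the combination. Of all 11627 genes read so, 1540 were higher and 1051 lower with alpelisib, and 3898 higher with the combination. Quantile normalization: 1 host higher with alpelisib, 2 genes and 4 hosts higher with the combination, where 1320 and 4183 of all 19775 genes were. No trend and robust variances alike: 1 host lower with osimertinib, 1 higher and 1 lower with the combination. Of all 19775 genes, the fit without a trend called 2260 lower with osimertinib, and 4003 higher and 3582 lower with the combination. With robust variances these were 2782, 4255 and 3813. The cause of these moves was not tested.
Leaving out 1 array at a time, with the number called for 3 genes and then for 10 hosts: osimertinib higher 0 to 1 and 0 to 2, hosts lower 1 to 2; alpelisib higher 0 to 1 and 0 to 1, hosts lower 0 to 3; combination higher 1 to 2, hosts lower 1 to 2; combination against osimertinib higher 0 to 2; combination against alpelisib higher 0 to 2; drug interaction, hosts higher 0 to 1.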
